A study of Solanum lycopersicum with 4 samples.

Results

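The 10 genes described here encode the ethylene receptors and the signalling steps behind them in tomato (Solanum lycopersicum). They were listed by gene name as members of the pathway, with earlier results of these data known: the receptors ETR1, ETR2, NR (also called ETR3), ETR4, ETR5 and ETR6, then CTR1, EIN2, EIL1 and EIL3. All 10 were found among the 34675 genes of the deposited table, and all 10 passed the filter on low values that left 16876 genes for testing. The study sequenced mRNA from fruit of the variety Ailsa Craig in 4 libraries. The transgenic group held 2 libraries from plants expressing the citrus gene CsMYBF1, which encodes a MYB transcription factor, 1 from line D7 and 1 from line C2. The wild-type group held 2 libraries of the same variety without the transgene, and no library received a treatment. The labels used here do not give the promoter of the transgene, the ripening stage of the fruit or whether fruit or plants were pooled, and each line is represented by 1 library. Rows of the table carry Solyc IDs, whose first digits are the chromosome. The genome build is not stated in the labels used here, so no coordinates are given.

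Ethylene is the hormone that drives ripening of tomato fruit. Its receptors sit in the endoplasmic reticulum membrane and work in reverse: without ethylene they keep the kinase CTR1 active, CTR1 holds EIN2 in check, and the response stays off. Ethylene binding silences the receptors, a part of EIN2 is then released to the nucleus, and transcription factors of the EIN3-like family (EIL) accumulate and switch on ethylene-responsive genes. In tomato, NR is the gene of the Never-ripe mutant, and NR, ETR4 and ETR6 are the receptors known for transcripts that climb during ripening.

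Levels are given in RPKM (reads per kilobase of gene and per 1000000 reads of the library total), a measure that divides by gene length. The library totals, recovered from the steps of the RPKM values, were 12916160 to 21403774 reads. Whether these totals are reads sequenced, mapped or counted in genes was not determined. The labelled tissue was checked with lists of IDs written from general knowledge, to which the sources used here attach no names. The lowest value among 7 IDs listed as ripening fruit genes was 215 and 113 RPKM in lines D7 and C2. It was 108 and 451 RPKM in wild-type replicates 1 and 2. The sum of these 7 IDs ranged from 7122 to 7449 RPKM in transgenic fruit and from 6770 to 8319 RPKM in wild type. Of 4 IDs listed as green tissue genes, 1 passed the filter, and the sum of the list was 39.1 and 8.01 RPKM in the transgenic libraries against 71.9 and 70.0 RPKM in wild type. The lowest value of this green tissue list was 0 in each transgenic library and, in the same order, 0.11 and 0.358 RPKM in wild type. Of the ripening fruit list 0 IDs were called higher and 1 lower, and of the green tissue list 0 were called, where 18.8% of all genes tested were called higher and 2.09% lower in the test described next. The part of fruit stage or green tissue in the results was not tested. In whole fruit, fewer cells of a type and less RNA per cell cannot be told apart.

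The comparison asks how this pathway stands in fruit with CsMYBF1 against wild-type fruit. All 10 genes had a higher mean in transgenic fruit, from 1.8-fold for CTR1 to 3.63-fold for EIN2. Of the 10 genes, 5 passed the test and rose: the receptors NR and ETR4, the signal transducer EIN2, and the transcription factors EIL1 and EIL3. The other 5, ETR1, ETR2, ETR5, ETR6 and CTR1, did not pass, and 0 of the 10 fell. Among all genes tested 18.8% were called higher and 2.09% lower (limma on log2(RPKM + 1), Benjamini-Hochberg adjusted p below 0.05). The median log2 fold change of the 10 genes was 1.27, against 0.49 over all genes tested. The calls were lost when any of 3 libraries was left out, while the log2 fold changes kept their direction. Without line D7, without line C2 or without wild-type replicate 2, 0 of the 10 genes passed, where 0.0533%, 0.0652% and 0.0356% of all genes were called higher. Without wild-type replicate 1 the number was 8, where 19.9% of all genes were. Leaving out D7 or C2 gave log2 fold changes of 1.86 and 1.78 for EIN2 and of 1.44 and 1.25 for NR. Leaving out wild-type replicate 1 or 2 gave 2.11 and 1.54 for EIN2 and 1.63 and 1.06 for NR. With no filter on low values the fold changes of the 10 genes were the same, but 0 of the 10 passed, where 0.045% of all genes were called higher. Scaling by the median of ratios moved the median of all genes to -0.05. The 10 genes then had a median of 0.67 and all 10 values stayed positive, but 0 of the 10 passed, against 2.95% of all genes called higher. As deposited, groups did not overlap for 9 of the 10 genes, all higher in transgenic fruit, and 50.7% of all genes tested showed that pattern.

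**Figure D1:**
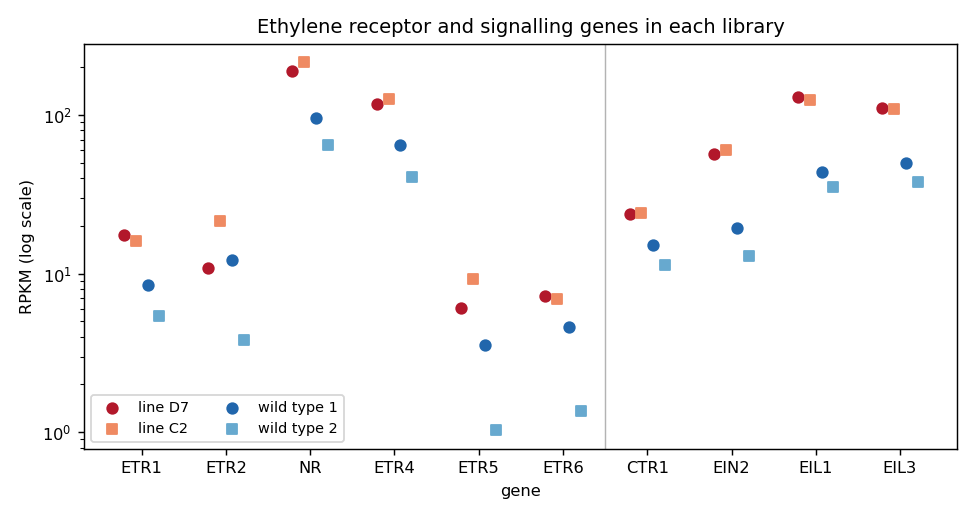
RPKM of each gene (log scale) in the 2 transgenic libraries (red and orange) and the 2 wild-type libraries (dark and light blue), with receptors left of the line and downstream genes right of it. NR is the highest receptor in every library, at 64.3 to 214 RPKM, and ETR2 is the gene whose groups overlap.

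Among the receptors, NR was the most abundant transcript. NR (Solyc09g075440.2, chromosome 9) reached 189 RPKM in the D7 library and 214 RPKM in the C2 library, compared with 96.1 RPKM in wild-type replicate 1 and 64.3 RPKM in replicate 2. Both lines lay above both wild-type libraries, the lower line by 1.96-fold over the higher wild-type library. The means were 202 ± 18.3 RPKM in transgenic fruit and 80.2 ± 22.5 RPKM in wild type (SD, n = 2 each), a log2 fold change of 1.34 ± 0.31 (SE; limma adjusted p = 0.037). NR lacks the receiver domain that closes most other receptors of the family. Among the 16876 genes tested, NR ranked 772nd and 593rd by level in lines D7 and C2, and 1729th and 2371st in wild-type replicates 1 and 2.

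ETR4 (Solyc06g053710.2, chromosome 6), of the subfamily whose histidine kinase domain has lost conserved residues, was the second most abundant receptor in every library. Its levels of 117 RPKM (D7) and 126 RPKM (C2) compared with 64.6 and 40.5 RPKM for wild-type replicates 1 and 2. The groups did not overlap, with means of 121 ± 5.98 and 52.6 ± 17 RPKM (SD, n = 2 each). ETR4 had a log2 fold change of 1.23 ± 0.32 (SE; limma adjusted p = 0.047), close to the threshold, and with a pseudocount of 0.1 in place of 1 the adjusted p was 0.0501. ETR6 (Solyc09g089610.2, chromosome 9), the third receptor known from ripening fruit, was present at far lower levels. It stood at 7.19 and 6.91 RPKM in lines D7 and C2 and at 4.59 and 1.36 RPKM in wild type, without overlap. The wild-type libraries differed from each other 3.37-fold (exact 95% counting interval 2.43 to 4.78), and the lines by 1.04-fold (0.867 to 1.25). Its log2 fold change of 1.15 did not pass (95% interval -0.04 to 2.33, limma adjusted p = 0.13).

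ETR1 (Solyc12g011330.2, chromosome 12), a receptor with an intact histidine kinase domain, stood at 17.5 and 16.1 RPKM in lines D7 and C2 and at 8.52 and 5.42 RPKM in wild type. The groups did not overlap, but the log2 fold change of 1.19 did not pass (95% interval 0.35 to 2.02, limma adjusted p = 0.056). ETR2 (Solyc07g056580.2, chromosome 7), its close relative, was the exception among the 10 genes. It read 10.9 RPKM in the D7 library and 21.6 RPKM in the C2 library, while wild type had 12.1 and 3.8 RPKM, so that line D7 lay below wild-type replicate 1. Line C2 was 1.99-fold above line D7 (exact 95% counting interval 1.77 to 2.24), each line being 1 library. The log2 fold change of ETR2 was 1.04 with a 95% interval from -0.38 to 2.47 (limma adjusted p = 0.22).

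ETR5 (Solyc11g006180.1, chromosome 11) was among the least abundant of the receptors. Transgenic values were 6.1 RPKM for D7 and 9.27 RPKM for C2, and wild-type values 3.57 and 1.03 RPKM, where the lowest value came from 31 reads. The groups did not overlap and the transgenic mean was 3.35-fold the wild-type mean, yet the libraries of each group lay far apart. The wild-type libraries differed 3.48-fold (exact 95% counting interval 2.36 to 5.27) and line C2 exceeded line D7 by 1.52-fold (1.27 to 1.83). The log2 fold change of RPKM + 1 was 1.49 (95% interval 0.28 to 2.70, limma adjusted p = 0.077). On this scale the change of so low a gene is understated.

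The summed level of the 6 receptors was 348 and 394 RPKM in lines D7 and C2, and 189 and 116 RPKM in wild type. The makeup of this sum differed little between the groups. NR made up 54.3% and 54.4% of it in the lines and 50.7% and 55.2% in wild type. ETR4 made up 33.7% and 31.9% in the lines and 34.1% and 34.8% in wild type. NR and ETR4 together held 84.8% to 90% of the receptor sum over the 4 libraries. The remaining receptors took small and variable shares: ETR2 ranged from 3.12% to 6.39%, ETR1 from 4.08% to 5.05%, ETR6 from 1.17% to 2.42% and ETR5 from 0.882% to 2.35%. The groups overlapped in the share of every receptor except ETR4, whose shares in the lines lay below both wild-type shares by at most 2.92 percentage points. ETR1, ETR2 and NR, the receptors with the intact kinase domain, held 62.5% and 64% in the lines and 61.6% and 63.1% in wild type. Such shares do not depend on how the libraries are scaled to each other. The receptors are also alike in length, from 2304 to 2782 bases. No test was run on these shares, and an exact permutation test of 2 libraries against 2 could not go below p = 0.333.

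**Figure D2:**
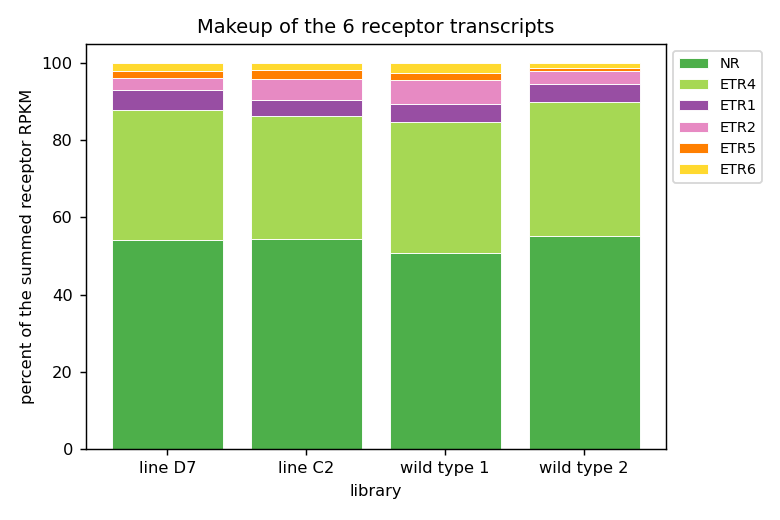
Percent of the summed RPKM of the 6 receptors held by each receptor in each library (stacked bars, 1 library each). NR holds 50.7% to 55.2% and ETR4 31.9% to 34.8% of the sum in all 4 libraries.

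CTR1 (Solyc10g083610.1, chromosome 10), the kinase that relays the receptors' signal, showed the smallest difference of the 10 genes. The lines were nearly equal at 23.7 RPKM (D7) and 24.0 RPKM (C2), above 15.1 and 11.4 RPKM in the wild-type replicates. The log2 fold change of 0.82 did not pass (95% interval 0.07 to 1.56, limma adjusted p = 0.099). EIN2 (Solyc09g007870.2, chromosome 9), the membrane protein downstream of CTR1, showed the largest. Its level was 56.9 and 60.2 RPKM in lines D7 and C2 and 19.4 and 12.8 RPKM in wild type. The lower line was 2.93-fold above the higher wild-type library. The log2 fold change of EIN2 was 1.82 ± 0.32 (SE; limma adjusted p = 0.031).

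EIL1 (Solyc06g073720.1, chromosome 6), one of the EIN3-like factors at the end of the chain, had 130 RPKM (D7) and 124 RPKM (C2) in transgenic fruit and 43.5 and 35.0 RPKM in wild-type fruit. Its groups lay far apart relative to their spread, with means of 127 ± 4.32 and 39.3 ± 6.02 RPKM (SD, n = 2 each). This is a log2 fold change of 1.67 ± 0.28 (SE; limma adjusted p = 0.031). EIL3 (Solyc01g096810.2, chromosome 1), a second member of that family, was at 110 and 109 RPKM in the lines and at 49.7 and 37.9 RPKM in wild type. EIL3 rose by a log2 fold change of 1.32 ± 0.28 (SE; limma adjusted p = 0.033). EIL genes resemble each other in sequence and how multi-mapping reads were counted is not stated in the labels. Reads that match more than 1 of them may thus have been left out or placed on either gene.

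By mean level, the order in wild type was NR, ETR4, EIL3, EIL1, EIN2, CTR1, ETR2, ETR1, ETR6 and ETR5. In transgenic fruit it was NR, EIL1, ETR4, EIL3, EIN2, CTR1, ETR1, ETR2, ETR5 and ETR6. Within each library NR exceeded ETR4, by 1.61- and 1.71-fold in lines D7 and C2 and by 1.49- and 1.59-fold in wild type. The neighbours ETR1 and ETR2 changed places between libraries of the same group, with ratios of 1.62 and 0.745 in the lines and 0.704 and 1.43 in wild type. ETR6 and ETR5 had a ratio of 1.29 and 1.33 in wild type and of 1.18 and 0.745 in the lines, so that their order differed between the lines. EIL1 and EIL3 exchanged places between the groups. EIL1 stood at 1.18 and 1.13 times EIL3 in the lines and at 0.876 and 0.923 times EIL3 in wild type.

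The other steps of the chain can be set beside CTR1 within each library. CTR1 had the smallest log2 fold change of the 10 genes, so a higher mean ratio over it in transgenic fruit follows for every other gene, and these ratios are a description of size. EIL1 stood at 5.47 and 5.16 times CTR1 in lines D7 and C2, against 2.89 and 3.07 times in wild type. EIL3 stood at 4.65 and 4.57 times CTR1 in the lines, against 3.3 and 3.33 times in wild type. EIN2 stood at 2.4 and 2.51 times CTR1 in the lines, against 1.29 and 1.13 times in wild type. The receptor sum was 14.6 and 16.4 times CTR1 in the lines and 12.6 and 10.2 times in wild type. EIN2 stood at 0.438 and 0.486 times EIL1 in the lines and at 0.446 and 0.367 times in wild type, and there the groups overlapped. EIN2 is the longest of the 10 genes, and fold changes in these data rose with gene length, as given below. The log2 difference between groups was 1.03 for EIN2 over CTR1 and 0.19 for EIN2 over EIL1. For EIL1 and EIL3 over CTR1 it was 0.84 and 0.48. Genes within 10% of the length of EIN2 had a median log2 fold change of RPKM + 1 of 1.67. That median was 1.25 for CTR1, 0.87 for EIL1 and 1.05 for EIL3. No test was run on these ratios.

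**Figure D3:**
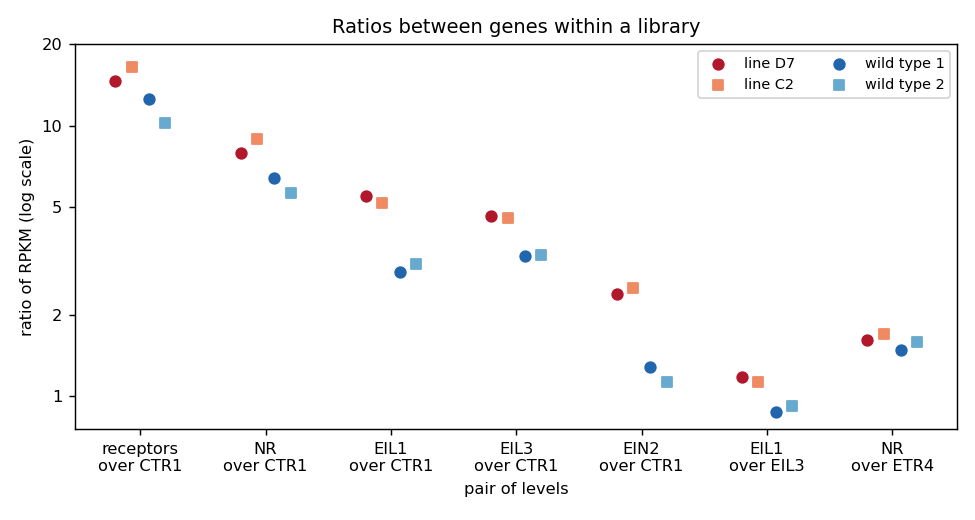
Ratio of the RPKM of 2 genes, or of the receptor sum and CTR1, within each library (log scale; colours and symbols mark the 4 libraries). EIL1 over CTR1 is 5.16 to 5.47 in the lines and 2.89 to 3.07 in wild type, and EIL1 over EIL3 lies above 1 in both lines and below 1 in both wild-type libraries.

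All of these are long genes, and in this data set the fold change moved with gene length. The lengths recovered from the RPKM steps ran from 1833 bases for EIL1 to 4257 for EIN2, with a median of 2513, against 1241 bases over all genes tested. A straight line through the log2 fold changes of all genes tested rose by 0.39 per doubling of length. The trend itself was not straight. Medians of genes binned by length were -0.39 at 477 bases, -0.03 at 1006, 0.98 at 1946 and 1.68 at 4047. At the lengths of the 10 genes it was thus steeper than the line. Of all genes tested, 26.3% of those from 1500 to 2499 bases were called higher, where EIL1, EIL3, ETR5, ETR6 and CTR1 lie, with 2 of these 5 called. Of genes from 2500 to 3999 bases 57.8% were called higher, where NR, ETR1, ETR2 and ETR4 lie, with 2 of these 4 called. EIN2 falls among genes of 4000 bases or longer, of which 79.5% were called higher. Read against these shares, the 5 calls among the 10 genes were about as many as genes of like length had.

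**Figure D4:**
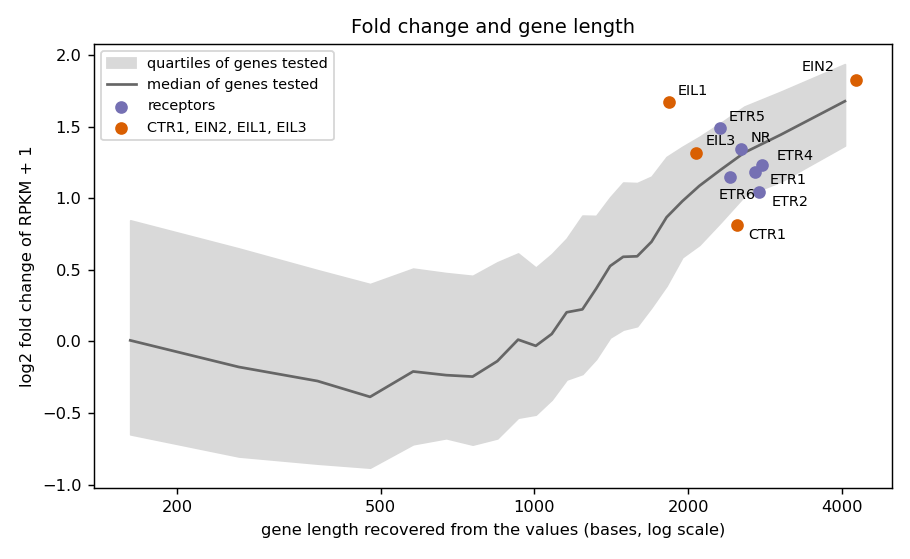
Log2 fold change of RPKM + 1 (transgenic over wild type) against gene length in bases (log scale) for the 10 genes, over the median (line) and the range between quartiles (grey) of all genes tested in bins of length. EIL1 at 1833 bases lies above the grey band and CTR1 at 2490 bases below it, and the median of the genes tested is 1.2 where ETR5 lies, at 2304 bases.

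Each gene was also set beside genes within 10% of its own length. The median log2 fold change of 1035 such genes was 1.28 for NR, whose own value was 1.34. For ETR4 it was 1.35 against its own 1.23, for ETR1 1.33 against 1.19 and for ETR6 1.22 against 1.15. ETR5 lay above its median (1.49 against 1.19) and ETR2 below it (1.04 against 1.34). Among the 6 receptors the differences from genes of like length were largest for ETR5, at 0.30, and ETR2, at -0.29. Both are smaller than the SE of the log2 fold change, 0.49 for ETR5 and 0.58 for ETR2. EIL1 was farthest from its like, at 1.67 against a median of 0.87 over 1839 genes, of which 91% had a lower log2 fold change. CTR1 lay on the other side, at 0.82 against 1.25 over 1102 genes, of which 20.2% were lower. EIN2 stood at 1.82 against 1.67 and EIL3 at 1.32 against 1.05.

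After the length trend was removed from each library, the median log2 fold change of the 10 genes was 0.01, and 0 of the 10 passed the test, against 0.107% of all genes called higher. EIL1 kept the largest value, 0.85 ± 0.22 (SE, 95% interval 0.28 to 1.41), with an unadjusted p of 0.013 and a limma adjusted p of 0.14. At an unadjusted p below 0.05 it was 1 of 10 genes, against 12.3% of all genes higher and 11.4% lower. On the log2(RPKM + 1) scale EIL1 stood 2.92 and 2.93 above the trend of its library in lines D7 and C2, against 2.14 and 2.02 in wild type. EIL3 stood 2.65 and 2.69 above it in the lines and 2.44 and 2.30 in wild type, a difference of 0.30 that did not pass (95% interval -0.27 to 0.87, limma adjusted p = 0.45). EIN2 had a difference of 0.17 (95% interval -0.44 to 0.78). CTR1 had the lowest, -0.43 (95% interval -1.02 to 0.17, limma adjusted p = 0.33), and stood 0.55 and 0.59 above the trend in the lines against 1.04 and 0.95 in wild type. NR had a difference of 0.08 (95% interval -0.55 to 0.71) and ETR4 one of -0.12 (-0.76 to 0.52), and for all 6 receptors the groups then overlapped. The groups did not overlap for 4 of the 10 genes, EIL1, EIL3 and EIN2 higher and CTR1 lower, and among all genes tested 28.9% were so placed above and 28.2% below.

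**Figure D5:**
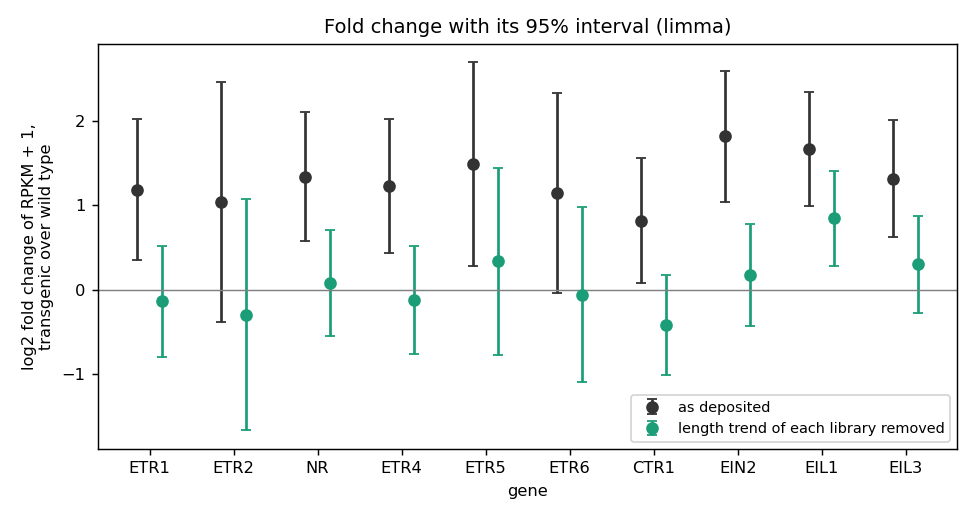
Log2 fold change of RPKM + 1 with its 95% interval from limma for each gene, as deposited (black) and after the length trend was removed from each library (green). As deposited all 10 values lie between 0.82 and 1.82, and with the trend removed the interval of EIL1, 0.28 to 1.41, is the one that stays above 0.

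The libraries within a group were not equally close. All 10 genes were lower in wild-type replicate 2 than in wild-type replicate 1, where 65.8% of all genes tested were. The ratio of replicate 1 to replicate 2 was smallest for EIL1 at 1.24 (exact 95% counting interval 1.14 to 1.35), EIL3 at 1.31 and CTR1 at 1.32, and it was above 3 for ETR2, ETR5 and ETR6. Of the 10 genes, 4 were higher in line D7 and 6 in line C2, where 55% of all genes tested were higher in line D7. The lines differed by under 1.14-fold for all genes except ETR2 and ETR5. Counting intervals compare these libraries and not the conditions.

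A further list of 8 IDs was written from general knowledge of the ethylene response, other EIN3-like factors, regulators and response factors among them. The sources used here attach no name to these IDs, so they are given as a group. Of the 8, 7 passed the filter on low values, 0 were called higher and 1 was called lower (limma adjusted p = 0.034, log2 fold change -1.31), against 18.8% and 2.09% of all genes tested. Their log2 fold changes had a median of 0.03 and reached up to 1.08, against the median of 0.49 for all genes tested. Lengths of the 7 tested ran from 202 to 2535 bases, with a median of 1818, shorter than every member of the main list. Among all genes tested, 8.02% of those from 60 to 1499 bases were called higher. The share was 26.3% from 1500 to 2499 bases and 57.8% from 2500 to 3999 bases. The list was not set beside genes of like length.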

How the data were processed

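Fruit mRNA of 4 libraries was analysed from a table of RPKM values deposited by the authors, 1 column per library. Per the labels' protocols, mRNA was enriched on oligo(dT) beads, fragmented and copied with random hexamers, with no step that marks the strand. The submitters' processing notes name HTSeq. Aligner, genome build, annotation release and filters are not given in the labels. Columns were matched to samples by line name or replicate number. No label ties the wild-type libraries to separate plants, so p-values reflect the spread between libraries, which may be technical.

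The main test was limma 3.58.1 (R 4.3.3, trended eBayes) on log2(RPKM + 1) over genes averaging 1 RPKM or more, with Benjamini-Hochberg adjusted p-values and a cutoff of 0.05. Every adjusted p comes from it unless a setting is named. Whole reads, library totals and gene lengths were solved from the RPKM steps (a solution for 24420 of 24422 genes above 0, tolerance 0.001 reads). The smallest length giving whole reads in all libraries was kept. Where the length and all reads of a gene share a factor, both are understated. Counting intervals are exact 95% intervals (Clopper-Pearson) and cover counting error only. The length trend was a loess of span 0.3 in each library. The procedures were tested on simulated data, in which the length trend was straight on the log2 scale, unlike the trend in these data. All 10 members are named, and members and lists were chosen with earlier results of these data known. The reference gene table (SLM_r2.1) holds no Solyc ID but places each of the 10 names on the chromosome its ID carries. Alternatives changed the pseudocount, filter, scaling, length trend, block, kind of values and libraries used.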

Additional observations from a re-analysis of the deposited data

How the results depend on the processing

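As deposited, 3179 genes were higher and 352 lower, with 5 and 0 of the 10 members. With no filter on low values these became 11 and 0 genes and 0 members higher. Median-of-ratios scaling gave 498 and 926 genes and 0 members, and the gene length correction 18 and 0 genes and 0 members. Under the length correction the log2 fold changes of ETR1, ETR2, ETR4, ETR6 and CTR1 turned to -0.14, -0.30, -0.12, -0.059 and -0.43. Without single libraries the counts ran from 6 to 3365 genes higher, from 0 to 451 lower and from 0 to 8 members higher, and such a fit assumes that the lone library varies like the other group. The members' call counts stayed within 1.5 times with both other pseudocounts, with a mean of at least 5 RPKM (which left out ETR5) and with voom on recovered reads. With a pseudocount of 0.1 ETR4 did not pass. The cause of these changes was not tested. All 10 members kept a positive log2 fold change under every setting that tested them except the length correction. The labels tie no replicate number to a common plant or batch. Across genes, deviations from the group means correlated at -0.16 between libraries that share a number. A fit with the replicate block called 24 genes higher, 0 lower and 0 members. The crossed block, which was chosen after seeing the data, gave 4071 genes higher and 816 lower, with 7 members higher. Depth limits ETR5 and ETR6 most, with 31 and 43 reads in wild-type replicate 2.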
